A study of Mus musculus with 24 samples.

Results

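Osteoblasts labelled knockout for β-arrestin 2 were compared with osteoblasts labelled wild type (WT) on day 10 of culture. The comparison used 6 of the series' 24 arrays, chosen by the genotype and day in their titles, with 3 arrays per genotype. The cells were primary osteoblasts, the bone-forming cells, taken from the skull vault, or calvaria, of pups 7 to 10 days old and used at passage 2. The labelled WT cells came from WT C57BL/6J mice, and the labelled knockout cells came from β-Arrestin 2 Knockout mice on the C57BL/6J background. How the knockout allele was made is not given in the sources used here. From day 3 both groups were kept in differentiation medium, which contained ascorbic acid at 50 mg/L and β-glycerophosphate at 5 mM, so the day 10 cells of each genotype were treated alike. The labels call the 3 arrays of a group independently prepared biological replicates, and how many pups went into a preparation is not given in the sources used here. Each array, an Affymetrix Mouse Gene 2.0 ST, was made from 100 ng of total RNA. Values below are log2 expression values made by the authors with RMA, and a difference is always labelled knockout minus labelled WT on that log2 scale.

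β-arrestins bind activated G protein-coupled receptors, uncouple them from their G proteins and carry them into the cell, and they also serve as scaffolds for kinase signalling. In bone, β-arrestin 2 is best known as a partner of the parathyroid hormone receptor. Osteoblasts and adipocytes both descend from mesenchymal progenitors, and cultures of calvarial cells can hold adipocytes, macrophages and muscle cells beside osteoblasts. The adipocyte programme is driven by the transcription factors PPARγ and C/EBPα, which turn on genes for fatty acid uptake, triglyceride synthesis, lipid droplet coating and secreted adipokines.

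Few genes differed past the test on day 10, and those that were lower in the arrays labelled knockout included genes of fat cells. A linear model over all 24 arrays (limma, 1 mean per genotype and day, Benjamini-Hochberg adjustment over the 14892 genes tested) called 5 genes at an adjusted p under 0.05, which is 0.0336% of those tested. Fabp4, Hp, Dgat2 and A530016L24Rik were lower in the labelled knockout (0.0269% of genes tested) and Myh8 was higher (0.00672%). A looser description, with no test, counted genes whose 3 labelled knockout arrays all lay above or all below the 3 labelled WT arrays: 896 were higher (6.02%) and 840 lower (5.64%). Large differences were mostly downward, with 109 genes at least 2-fold lower (0.732%) and 14 at least 2-fold higher (0.0940%). The counts of calls rested on single arrays. Leaving out labelled knockout replicate 2 or labelled WT replicate 3 raised the calls to 55 and 54, while leaving out labelled WT replicate 1 or 2 left 0 calls in limma, with 709 and 1412 genes at an unadjusted p under 0.05. Leaving out labelled knockout replicate 1 or 3 left 3 calls each. With the 6 day 10 arrays alone limma called 1 gene, Myh1.

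A miss of the threshold does not show that genes were alike. The 95% confidence interval of the difference lay within 1 log2 unit of 0, that is within a 2-fold change either way, for 13393 of the 14892 genes tested (89.9%). Of all genes tested 7.74% had an unadjusted p under 0.05, 2.99% with a higher and 4.74% with a lower level. The median distance from the estimate to either end of its interval was 0.38 log2 units. The median difference over all genes tested was 0.03.

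The targeted gene was examined first. Arrb2, which encodes β-arrestin 2, read 6.65, 6.78 and 6.44 in the 3 arrays labelled knockout and 5.51, 5.85 and 6.04 in the 3 labelled WT. Every labelled knockout array lay above every labelled WT array. The difference was 0.82 (95% interval 0.45 to 1.19, 1.77-fold higher), which did not pass the test (limma adjusted p = 0.0932). The signal thus goes against the label, as it also did on days 2, 5 and 28, where the differences were 1.21, 1.58 and 0.40. On each of days 2 and 5 Arrb2 was the 1 gene that limma called between genotypes (0.00672% of genes tested). The labels do not place the deletion relative to the array's probes, and probes that lie outside it would not check the label. All directions are therefore those of the arrays as labelled. Without labelled WT replicate 3 the Arrb2 difference was 0.94 and passed the test (limma adjusted p = 0.0367). Arrb1, the gene of β-arrestin 1, read 6.94, 7.39 and 7.02 against 6.94, 7.47 and 7.07 (difference -0.05, 95% interval -0.53 to 0.44).

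Several arrays stood apart within their group. Correlations over the tested genes were 0.961 to 0.983 between arrays of a genotype and 0.948 to 0.984 between genotypes. Labelled WT replicate 1 lay at one end of the first principal component of the 6 arrays (40.6% of the variance), and labelled knockout replicate 2 at one end of the second (23.7%). Sex-linked genes differed among preparations: Xist, the RNA of X inactivation, was 4.31 in labelled WT replicate 2 and 7.90 to 8.99 in the other arrays, and Y-linked Eif2s3y was 3.46 in labelled WT replicate 3 and 4.71 to 8.20 in the others. Adding Xist and the mean of the Y-linked genes to the model, an alternative chosen after seeing the data, gave 7 calls that included all 5. The labelled cell type was checked on some of its markers, of which Alpl, Sp7 and Ibsp are given further below. Col1a2 and Sparc were also set as osteoblast markers, and their values are not given here. Col1a1, the main collagen chain of bone, was 13.07 to 13.84 on every array. Bglap, the gene of osteocalcin, stayed at 4.21 to 4.58, below the medians of its arrays. The related gene Bglap2 had no row with a single symbol and was not read.

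Fabp4, which encodes the fatty acid carrier protein abundant in adipocytes, was the called gene with the largest difference. It read 4.02, 7.54 and 5.16 in the labelled knockout and 11.97, 11.45 and 8.60 in the labelled WT. The groups did not overlap, although labelled WT replicate 3 was the nearest to the labelled knockout. The difference was -5.10 ± 0.76 (standard error), a 34.2-fold lower level (limma adjusted p = 0.00791).

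Dgat2, the acyltransferase that completes triglyceride synthesis, was even across the labelled knockout arrays. Its values were 6.43, 6.38 and 6.12 there and 8.40, 8.78 and 7.30 in the labelled WT. The difference was -1.85 ± 0.27 (3.61-fold lower, limma adjusted p = 0.00746). Hp, the gene of haptoglobin, a haemoglobin-binding plasma protein that adipocytes also secrete, read 4.92, 7.45 and 6.57 against 9.66, 9.39 and 8.72. No labelled knockout array reached the labelled WT range (difference -2.94 ± 0.42, 7.69-fold lower, limma adjusted p = 0.00746). A530016L24Rik, a transcript whose function is left unstated here, read 5.07, 5.49 and 5.51 against 6.72, 6.86 and 5.98. Its difference was the smallest of the 5 (-1.16 ± 0.18, 2.24-fold lower, limma adjusted p = 0.0109).

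None of the 5 calls held in every fit that left out 1 array. All 5 missed the threshold without labelled WT replicate 1 (limma adjusted p = 0.0907) and without labelled WT replicate 2 (0.0588 to 0.0958). Without labelled knockout replicate 1, Fabp4 (0.0843) and A530016L24Rik (0.140) missed it as well. Without labelled knockout replicate 3, Fabp4 (0.0560), Dgat2 (0.0512) and Myh8 (0.150) missed it. All 5 held without labelled knockout replicate 2 and without labelled WT replicate 3. The sign of all 5 differences was the same in these 6 fits.

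**Figure D1:**
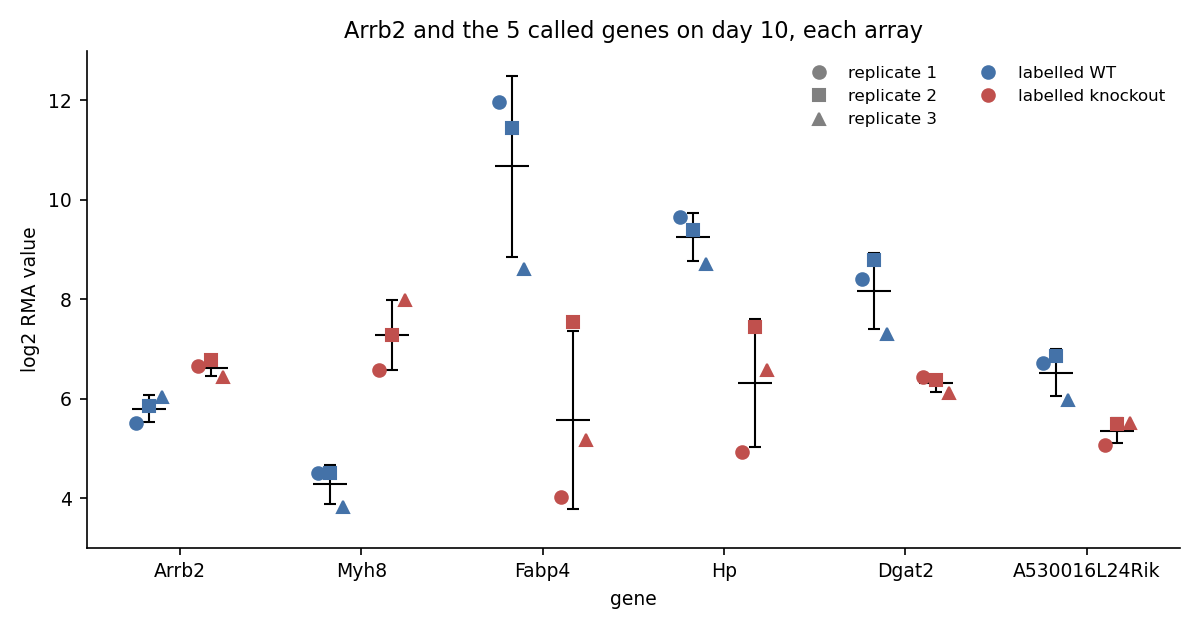
Log2 RMA value of Arrb2 and of the 5 called genes on each of the 6 day 10 arrays, 1 point per array, coloured by labelled genotype. Fabp4 spans 4.02 to 7.54 in the labelled knockout and 8.60 to 11.97 in the labelled WT, and Arrb2 is higher in every labelled knockout array.

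Adipocyte genes were lower as a group. A list of 28 adipocyte genes was described, of which 24 were tested: Cfd, Acsl1 and Adrb3 had no row with a single symbol, and Cidea lay below the filter on low values. All 24 had a negative difference, 2 were called lower (Fabp4 and Dgat2), and 10 did not overlap between groups and were lower (5.64% of all genes tested did the same). The median difference was -1.25, against 0.03 over all genes tested, and 15 of 24 were at least 2-fold lower. Of the 24, 20 had an unadjusted limma p under 0.05 with a lower level, against 4.74% of all genes tested. In bulk RNA, fewer adipocytes in the culture and less RNA of these genes per adipocyte cannot be told apart. The series' earlier results were known when the list was described, so it is not independent evidence of a direction.

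Members of the list are named here by their role, with their values known, and Fabp4, Dgat2, Plin1, Adipoq, Cidec, Car3 and Cd36 also met the naming rule. The transcription factors showed the spread within the list. Pparg, the gene of the adipogenic nuclear receptor, read 6.05, 7.35 and 7.44 in the labelled knockout and 8.61, 8.91 and 8.30 in the labelled WT. The groups did not overlap, and the difference of -1.66 did not pass the test (limma adjusted p = 0.142). Cebpa read 6.38, 8.05 and 7.23 against 8.38, 9.04 and 8.45 (difference -1.40, limma adjusted p = 0.131). Cebpb and Cebpd, the C/EBP factors that act early in adipogenesis, differed by -0.07 and -0.26, so the largest differences did not include them.

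Lipid droplet genes came next. Plin1, which encodes perilipin 1, the coat protein of large fat droplets, read 4.78, 5.89 and 5.36 against 8.60, 8.61 and 6.03. Labelled WT replicate 3 lay just above the highest labelled knockout array, and the difference of -2.41 missed the threshold (limma adjusted p = 0.0600). Cidec, the gene of a protein that fuses fat droplets, read 4.76, 4.73 and 4.79 against 8.62, 8.09 and 4.82. Here 2 of the 3 labelled WT arrays were far above the labelled knockout and the third was level with it (difference -2.42, limma adjusted p = 0.127). Plin2, a droplet coat protein found in many cell types, differed by -0.22.

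Adipokine genes were also highest in labelled WT replicates 1 and 2. Adipoq, the gene of adiponectin, read 4.23, 4.81 and 4.35 against 8.78, 8.19 and 4.97 (difference -2.85, limma adjusted p = 0.0660). Retn, the gene of resistin, read 4.46, 5.12 and 4.88 against 8.98, 7.79 and 4.94, so that labelled WT replicate 3 fell within the labelled knockout range. Lep, the gene of leptin, was low on all arrays (3.03 to 4.17 against 3.99 to 4.72).

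Genes of fatty acid uptake, triglyceride synthesis and fat release on the adipocyte list were lower to differing degrees. The separate list of fatty acid and cholesterol synthesis genes had a median difference of 0.09. Lpl, the lipase that frees fatty acids from lipoproteins, read 6.98, 10.69 and 9.43 against 11.63, 11.82 and 10.42 (difference -2.26, limma adjusted p = 0.229). Cd36, a fatty acid transporter that macrophages also carry, read 4.61, 8.82 and 4.56 against 9.92, 9.20 and 6.41. Labelled knockout replicate 2 stood far above the other arrays of its group. Gpd1, which supplies glycerol phosphate for triglycerides, read 5.28, 6.28 and 5.59 against 8.999, 9.49 and 6.17 (difference -2.50, limma adjusted p = 0.0791). Lipe and Pnpla2, the genes of the lipases that release stored fat, differed by -0.85 and -1.06, and Slc2a4, the gene of the insulin-responsive glucose transporter, by -0.92. None of these passed the test.

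Within the labelled WT, replicate 3 was the lowest of the 3 arrays for 21 of the 24 genes, and for 13 it was at or below the highest labelled knockout array. Replicates 1 and 2 of the labelled WT lay above all labelled knockout arrays for 21 of 24. Within the labelled knockout, replicate 2 was the highest for 16 of 24. The mean over the list was 5.62, 6.59 and 6.01 in the labelled knockout and 8.32, 8.23 and 6.59 in the labelled WT. Without labelled WT replicate 3 the median difference was -1.61 with 14 members called, and without labelled knockout replicate 2 it was -1.49 with 8 called. Without labelled WT replicate 1, labelled WT replicate 2 or labelled knockout replicate 3 the limma fit called 0 members, and without labelled knockout replicate 1 it called 1. Labelled WT replicate 3 was also the array with the lowest Eif2s3y, and the part of sex-linked or preparation differences in the adipocyte values was not tested beyond the model with these terms, in which the median difference was -1.22 and 2 members were called.

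**Figure D2:**
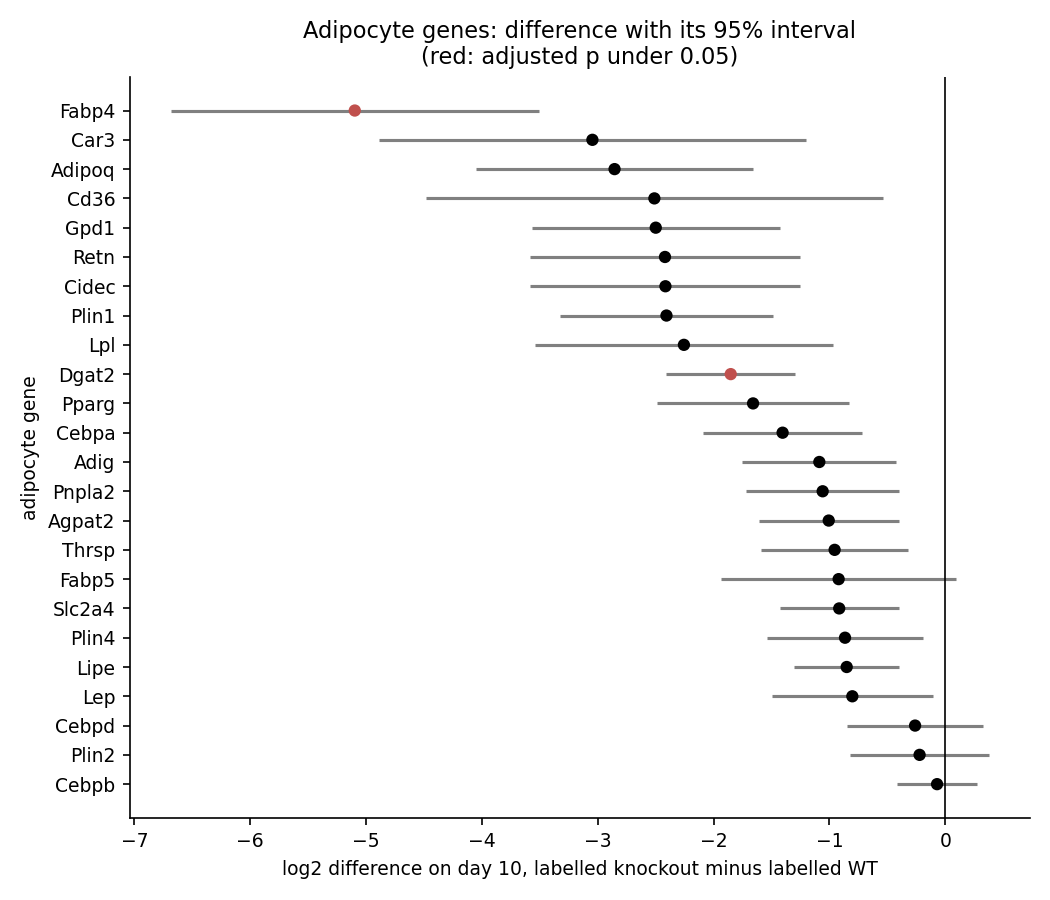
Log2 difference on day 10, labelled knockout minus labelled WT, of each of the 24 adipocyte genes tested, with its 95% confidence interval from limma. All 24 points lie below 0, from -5.10 for Fabp4 to -0.07 for Cebpb, and the 2 called genes are drawn in red.

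On day 10 the labelled WT arrays had moved toward higher adipocyte gene levels than on day 5, more than the labelled knockout arrays. From day 5 to day 10, limma called 18 of the 24 genes higher in the labelled WT (6.02% of all genes tested) and 3 of 24 in the labelled knockout (2.58%). Fabp4 rose by 5.39 in the labelled WT (limma adjusted p = 0.000141) and differed by 0.69 between these days in the labelled knockout (adjusted p = 0.658). Plin1 rose by 2.60 in the labelled WT and differed by 0.53 in the labelled knockout. The difference between these changes did not pass the test for either gene (limma adjusted p = 0.746 for Fabp4 and 1.00 for Plin1).

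By day 28 the levels were high in both genotypes and a gap remained. Fabp4 was 10.78 in the labelled knockout and 12.15 in the labelled WT (difference -1.37, limma adjusted p = 0.928). The difference of Dgat2 was -1.69 on day 28 and passed the test (limma adjusted p = 0.00539), as did that of A530016L24Rik (-1.30, adjusted p = 0.00148). Mrap, an accessory protein gene of the corticotropin receptor that adipocytes express, differed by -1.75 on day 10 (adjusted p = 0.142) and was lower on day 28 (-2.17, adjusted p = 0.0314). The median difference over the adipocyte list was -0.03, -0.18, -1.25 and -1.12 on days 2, 5, 10 and 28, and on day 28 limma called 4 members lower. Background rates of calls between genotypes were 33 lower genes on day 28 (0.222%) and 0 lower genes in limma on days 2 and 5.

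Whether the genotype difference on day 10 departed from the mean difference of the other days was tested for every gene, and limma called 0 of 14892 (544 genes, or 3.65%, had an unadjusted p under 0.05). The 4 genes with the smallest p were Fabp4 (-4.50), Hp (-2.28), Tacr1 (-0.63) and Prodh (0.69), in log2 units of the difference between differences, with an adjusted p of 0.542 each. Against day 28 alone limma called 1 gene, Tmem45b (2.18, adjusted p = 0.0162), which was chosen after its value was seen. Without labelled WT replicate 3 this test against the mean of the other days called 20 genes, Fabp4, Adipoq, Plin1 and Cidec among them, and without labelled knockout replicate 2 it called 3.

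**Figure D3:**
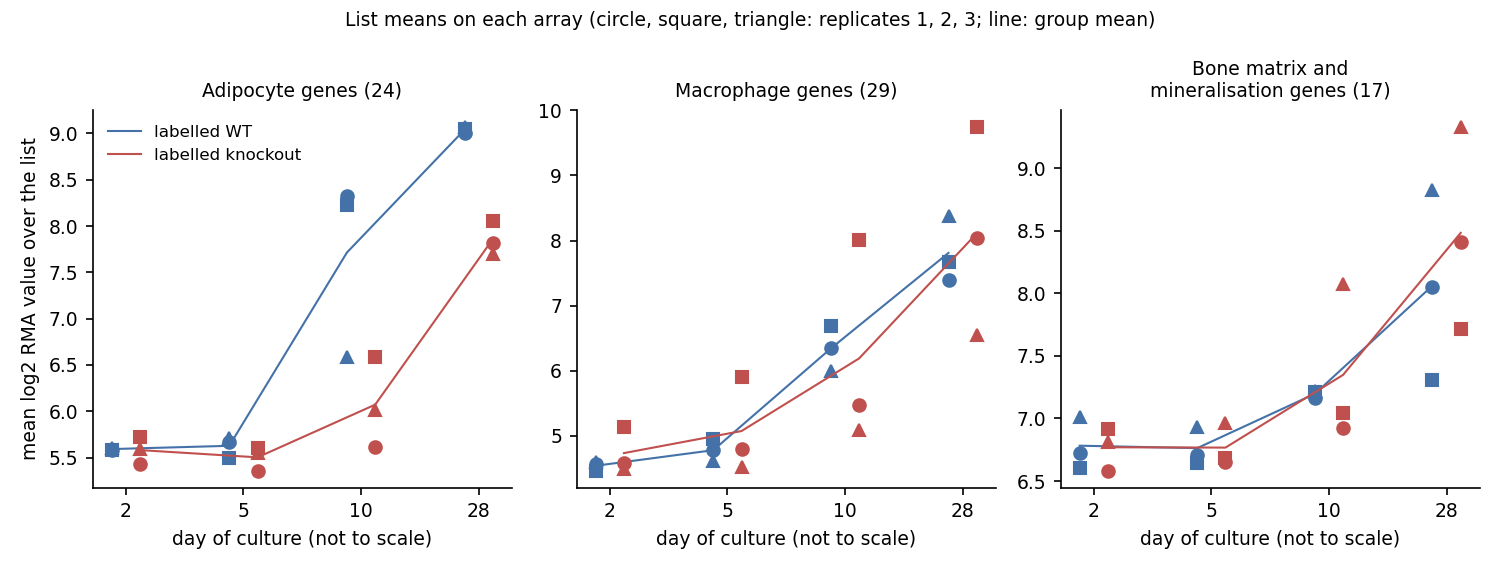
Mean log2 RMA value over gene lists on each of the 24 arrays, by day of culture and labelled genotype, with replicates 1, 2 and 3 as circle, square and triangle and the group mean as a line. On day 10 the adipocyte mean is 8.32, 8.23 and 6.59 in the labelled WT and 5.62, 6.59 and 6.01 in the labelled knockout, and labelled knockout replicate 2 has the highest macrophage mean of the 6 (8.01).

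The Plin1 promoter is shown because the adipocyte genes were lower together and C/EBP factors are among the list's regulators. The 250 bases before the RefSeq start of Plin1 (GRCm38.p6, chr7:79732777-79733026, minus strand, 5′ to 3′) were searched on both strands for a C/EBP-like motif, TTGCNNAA or its reverse TTNNGCAA, which are shown in capitals.
Plin1: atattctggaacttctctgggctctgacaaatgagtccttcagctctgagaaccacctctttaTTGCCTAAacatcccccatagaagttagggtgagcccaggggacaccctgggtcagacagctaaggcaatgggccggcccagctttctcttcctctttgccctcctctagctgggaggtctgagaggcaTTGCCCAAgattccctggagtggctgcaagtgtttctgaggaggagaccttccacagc
The window held 2 matches, and 9.56% of the 32851 promoters of this length in the RefSeq table held at least 1. Of the 28 adipocyte genes 18 had an entry in the table, and 4 of these 18 held a match in at least 1 promoter. The nuclear receptor half-site AGGTCA or TGACCT, part of the element that PPARγ binds, had 0 matches in the Plin1 window. It matched in 14.0% of all promoters, and 4 of the 18 adipocyte genes held one in at least 1 promoter. The counts of adipocyte genes are per gene and the shares over the table per promoter, so they are not directly comparable. The window of Adipoq had 0 matches of either motif. A match describes the letters and not a bound site, and 0 matches says only that these letters were not in the window.

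Genes outside the adipocyte list were also at lower level without passing the test. Those named first had an unadjusted p under 0.01 with no overlap between the groups and were among the 12 largest differences in that direction. Lgals12, the gene of a galectin found on fat droplets, read 4.13, 4.94 and 4.60 against 8.04, 7.98 and 5.12 (difference -2.49, limma adjusted p = 0.0660). Agtr2, the angiotensin II type 2 receptor gene, read 5.82, 6.69 and 4.78 against 8.32, 8.11 and 6.98 (difference -2.04). Fzd4, a Wnt receptor gene, read 7.29, 9.46 and 7.88 against 9.70, 10.67 and 9.90 (difference -1.88). Ccl11, the gene of the chemokine eotaxin, read 5.41, 6.67 and 5.29 against 7.67, 8.62 and 6.69 (difference -1.87). In each of these 4 genes labelled knockout replicate 2 was the highest labelled knockout array, and none passed the test. Ankef1 (-2.23) also belonged to this group.

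Further lower genes came from other lists, given here by median difference and number of positive members. The collagen list had 0.24 (23 of 27). The list of parathyroid hormone receptor and cyclic AMP genes, with Ppargc1a, had -0.07 (9 of 23). The BMP and TGF-beta list, with Id1, had 0.08 (18 of 30). Of the genes above, Fzd4 stood on the Wnt list, with 0.10 (19 of 32). Ccl11 stood on the chemokine and cytokine list, with -0.02 (11 of 23). Limma called 0 members of each. Col15a1, which encodes a basement membrane collagen, read 6.30, 6.81 and 6.03 against 7.70, 8.91 and 7.29 (difference -1.59, limma adjusted p = 0.0791). Ppargc1a, the coactivator gene of mitochondrial biogenesis that cyclic AMP induces, read 4.42, 6.38 and 5.27 against 6.97, 6.85 and 6.44 (difference -1.40). Lcn2, the gene of the iron-siderophore binding protein lipocalin 2, read 4.81, 5.82 and 5.51 against 7.06, 6.87 and 6.14 (difference -1.31). These 3 genes did not overlap between the groups and did not pass the test. Cxcl12, the stromal chemokine gene, differed by -0.81 with no overlap (11.23 to 11.79 against 12.16 to 12.40), and Id1, a BMP target gene, by -0.66 (7.21 to 7.30 against 7.71 to 8.12).

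Myh8 was the single gene called higher. It encodes the perinatal myosin heavy chain of skeletal muscle. It read 6.58, 7.29 and 7.99 in the labelled knockout and 4.50, 4.50 and 3.82 in the labelled WT, a difference of 3.01 ± 0.49 (8.07-fold higher, limma adjusted p = 0.0138). All 3 labelled WT values lay below the medians of their arrays, so the size of the fold is uncertain. The level was 3.90 in the labelled knockout on day 5 and rose by 3.39 to day 10 (limma adjusted p = 0.000560), while in the labelled WT it was 4.28 on day 5 and differed by less than 0.01. On day 28 the difference was 2.68 (limma adjusted p = 0.0206). A second transcript cluster assigned to Myh8 was low on all arrays (3.74 to 4.37 against 3.08 to 3.97, difference 0.55).

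Myh1, the myosin heavy chain gene of fast adult muscle fibres, was likewise higher on every labelled knockout array than on any labelled WT array. It read 6.75, 6.97 and 6.43 against 4.33, 4.59 and 4.56, a difference of 2.22 (limma adjusted p = 0.142). The labelled WT values lay below or next to the medians of their arrays, so the size of this difference is uncertain too. It was the 1 gene that limma called when fitted to the 6 day 10 arrays alone (adjusted p = 0.0222). Myh3, the embryonic isoform, differed by 0.17. Myh2 (0.08), Myh4 (-0.26) and Myh13 (0.25) lay below the filter on low values. The myosin heavy chain genes resemble each other in sequence, and whether shared probes affected single values was not tested. Of 29 skeletal muscle genes 23 were tested: 1 was called higher, 3 were higher with no overlap (6.02% of all genes tested), 14 of 23 were positive, and the median difference was 0.05. Tnnc2 and Myl1, which encode other proteins of the sarcomere, differed by 0.22 and -0.40.

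Myh8 and Myh1 lie on the chromosome that also carries Arrb2, 102 and 104 protein-coding genes away in the order of the annotation. Among the 201 genes tested within 150 genes on either side of Arrb2, 1 was called, 21 were higher with no overlap (10.4%, against 6.02% of all genes tested) and 15 were lower (7.46%, against 5.64%). The called gene was Myh8 itself, and Myh8 and Myh1 were both among the 21, so these counts are not separate from the 2 genes. The median difference in that window was 0.06.

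The Myh8 promoter is shown because this gene alone was called higher. The 250 bases before its RefSeq start (GRCm38.p6, chr11:67276874-67277123, plus strand, 5′ to 3′) were searched on both strands for a MEF2-like motif, CTANNNATA or TATNNNTAG, and for the E-box CANNTG that myogenic factors bind, both shown in capitals.
Myh8: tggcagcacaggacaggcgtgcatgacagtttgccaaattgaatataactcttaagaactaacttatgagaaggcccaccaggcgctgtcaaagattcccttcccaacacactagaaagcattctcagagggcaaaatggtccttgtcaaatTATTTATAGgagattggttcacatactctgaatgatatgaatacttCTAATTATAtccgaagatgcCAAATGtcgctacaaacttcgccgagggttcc
It held 2 MEF2-like matches and 1 E-box. A MEF2-like match was found in 6.55% of all promoters of this length and an E-box in 66.2%.

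Of the other genes at higher level in the labelled knockout, those with an unadjusted p under 0.01 and no overlap had smaller differences than Myh8 and Myh1, and none passed the test. Spock3, which encodes a matrix proteoglycan, read 7.00, 6.42 and 6.48 against 5.72, 5.98 and 4.37 (difference 1.28). Tarbp1, the gene of an RNA methyltransferase, read 7.13, 7.13 and 7.42 against 5.96, 6.29 and 6.47 (difference 0.98, limma adjusted p = 0.0956). Plaur, the urokinase receptor gene, read 7.54, 7.56 and 7.38 against 6.47, 6.53 and 6.78 (difference 0.90). Each kept the 3 labelled knockout arrays above the 3 labelled WT arrays. The same held for the guanine nucleotide exchange factor gene Fgd3 (0.86), the growth factor gene Pdgfc (0.86), the kinase gene Camk1d (0.85), the cadherin gene Cdh6 (0.80), the activin subunit gene Inhbb (0.79) and the cell cycle kinase gene Cdk6 (0.74).

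Osteoblast genes did not differ past the test. Alpl, the gene of the bone alkaline phosphatase, read 8.84, 8.06 and 9.86 against 7.30, 8.32 and 8.72 (difference 0.81, 95% interval -0.81 to 2.42), so a difference of over 2-fold in the higher direction lay within the interval. Sp7, the gene of the osteoblast transcription factor osterix, read 7.45, 6.35 and 8.24 against 6.51, 6.29 and 7.08 (difference 0.72, 95% interval -0.51 to 1.95). Ibsp, the gene of bone sialoprotein, read 5.12, 5.60 and 11.33 against 5.50, 4.72 and 7.39. The values were high in replicate 3 of each genotype, and without labelled knockout replicate 3 the difference turned from 1.48 to -0.51. Col1a1 (0.24), Pth1r, the parathyroid hormone receptor gene (0.29), Mmp13, the collagenase gene (0.49), and the osteocyte genes Dmp1 (0.07) and Sost (0.16) had intervals that included 0.

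Of 18 osteoblast transcription factor genes 15 were tested and 0 called by limma, with 3 higher and 0 lower at an unadjusted p under 0.05. Their median difference was 0.22 and 13 of 15 were positive, and 2 were higher with no overlap (6.02% of all genes tested): Runx3 was one, at 6.22, 6.23 and 6.46 against 5.54, 5.91 and 6.06. Dlx5, a homeobox gene of early osteoblasts, differed by 0.77 with no overlap (9.37, 8.42 and 8.69 against 7.93, 8.28 and 7.97). Of 20 bone matrix and mineralisation genes 17 were tested and 0 called by limma, 1 of them with an unadjusted p under 0.05, and the median difference was 0.19. That median was -0.04 without labelled knockout replicate 3. The 1 gene of this list with an unadjusted p under 0.05 was Car3, a carbonic anhydrase gene that also stood on the adipocyte list (5.08, 7.60 and 7.65 against 11.21, 11.66 and 6.60).

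Cell division genes leaned upward without a call. Of the 34 tested, 29 were positive, 5 were higher with no overlap (14.7%, against 6.02% of all genes tested) and the median difference was 0.33, while limma called 0 and 1 had an unadjusted p under 0.05. Cdc6, a replication licensing gene, read 6.44, 6.31 and 6.01 against 5.47, 5.64 and 6.16. Hells, the gene of a chromatin remodeller, read 6.77, 6.67 and 6.60 against 5.87, 6.31 and 6.15 with no overlap. Labelled knockout replicate 1 was the highest of the 6 arrays for 23 of the 34 genes (21.2% of all genes tested) and labelled WT replicate 1 the lowest for 17 (32.8% of all genes tested). Without labelled WT replicate 1 the median was 0.20.

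Collagen and oxidative phosphorylation genes followed 1 array. Of 27 genes of collagens and their processing, 23 were positive with a median of 0.24, 4 were higher with no overlap (14.8%, against 6.02% of all genes tested), 1 was lower (3.7%, against 5.64%), and limma called 0 (1 higher and 1 lower at an unadjusted p under 0.05). Labelled WT replicate 1 was the lowest of the 6 arrays for 22 of the 27, against 32.8% of all genes tested, and without that array the median was 0.06. Loxl3, a collagen cross-linking oxidase gene, read 10.95, 10.49 and 10.17 against 9.72, 10.09 and 10.05. Of 25 oxidative phosphorylation genes 20 were negative with a median of -0.14, 3 were lower with no overlap (12%, against 5.64% of all genes tested), and limma called 0 (3 at an unadjusted p under 0.05). Labelled WT replicate 1 was the highest array for 19 of the 25, against 25.1% of all genes tested, and without it the median was -0.03. Ndufa4, a respiratory chain subunit gene, read 10.35, 10.31 and 10.45 against 11.57, 10.52 and 10.69.

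Macrophage genes varied more between arrays of the labelled knockout than between genotypes. Of 32 listed genes 29 were tested and limma called 0, with 1 at an unadjusted p under 0.05, and the median difference was -0.07. The list mean was 5.48, 8.01 and 5.09 in the labelled knockout and 6.36, 6.68 and 5.99 in the labelled WT. Labelled knockout replicate 2 was the highest of the 6 arrays for 28 of 29 genes (14.4% of all genes tested), and without it 28 of 29 differences were negative and the median was -1.01. Lyz2, the lysozyme gene of macrophages, read 9.19, 12.02 and 8.74 against 11.31, 10.96 and 9.97, and Mrc1, a mannose receptor gene, read 6.43, 10.27 and 5.84 against 7.58, 9.45 and 8.05. Adding the macrophage list mean to the model, an alternative chosen after seeing the data, gave 34 calls that included the 5, with 6 adipocyte genes among them. Arrb2 was then also called (0.84, limma adjusted p = 0.0303). The part of macrophages in the other differences was not tested beyond that model.

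The genes of widest spread within the groups included several of these. Kcnma1, the gene of a calcium-activated potassium channel, read 13.49 in labelled knockout replicate 2 and 3.76 to 6.51 in the other arrays, and the arrays with that number and label read 10.40, 12.96 and 13.63 on days 2, 5 and 28. Its difference of 3.98 was the largest in the higher direction among all genes tested and did not pass the test (limma adjusted p = 0.697). Lilrb4a, Ctss and Hpgds, known from myeloid cells, were all highest in labelled knockout replicate 2 (11.78, 10.29 and 8.03).

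Genes that change most with culture time were chosen on the day 2 and day 28 arrays, with both genotypes at equal weight, and then described on day 10. The replicate number seemed to mark the same preparation across days, so the choice is not independent of the day 10 arrays. For example, the macrophage list mean of labelled knockout replicate 2 was 8.01 on day 10 and 9.74 on day 28. Of the 100 genes that rose most, 81 were lower in the labelled knockout on day 10, 14 with no overlap (against 5.64% of all genes tested), and the median difference was -0.56. Here 7 were adipocyte and 11 macrophage genes of the lists above, and the 82 on neither list had a median of -0.53, with 65 lower and 11 of them without overlap. Limma called 2 of the 100, Fabp4 and Hp. The median depended on single arrays: it was -1.26 without labelled knockout replicate 2, -0.28 without labelled knockout replicate 1 and -0.32 without labelled knockout replicate 3. Of the 100 genes that fell most, 78 were higher in the labelled knockout on day 10, 16 with no overlap (against 6.02% of all genes tested), with a median difference of 0.33 and 0 called by limma (3 higher and 1 lower at an unadjusted p under 0.05). Without labelled knockout replicate 1 that median was 0.19. In all, 7 of these 100 belonged to the cell division list.

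Of the 37 gene lists, 35 had no member called, and the other two were the adipocyte list and the skeletal muscle list. Elastin (Eln), the gene of the elastic fibre protein, read 7.55, 9.74 and 8.85 against 10.17, 10.25 and 9.75 (difference -1.34) within a list of proteoglycan and matrix genes with a median of -0.02 (-0.03 to 0.11 when 1 array was left out). Tnn, the gene of tenascin N, differed by 1.74 in the same list (8.97, 8.18 and 9.56 against 5.94, 6.85 and 8.70). In the complement list the median was -0.16, and it was -0.31 without labelled knockout replicate 2, -0.03 without labelled knockout replicate 1, 0.06 without labelled knockout replicate 3 and 0.035 without labelled WT replicate 2. There C4b read 6.94, 8.59 and 6.14 against 8.22, 9.27 and 8.88. In the periosteal and suture progenitor list, with a median of 0.13 (0.06 to 0.19 when 1 array was left out), Six2, a progenitor transcription factor gene, read 9.07, 8.55 and 8.77 against 7.76, 8.11 and 8.42 with no overlap (difference 0.70), and Pi16 differed by -0.75. None of these passed the test.

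**Figure D4:**
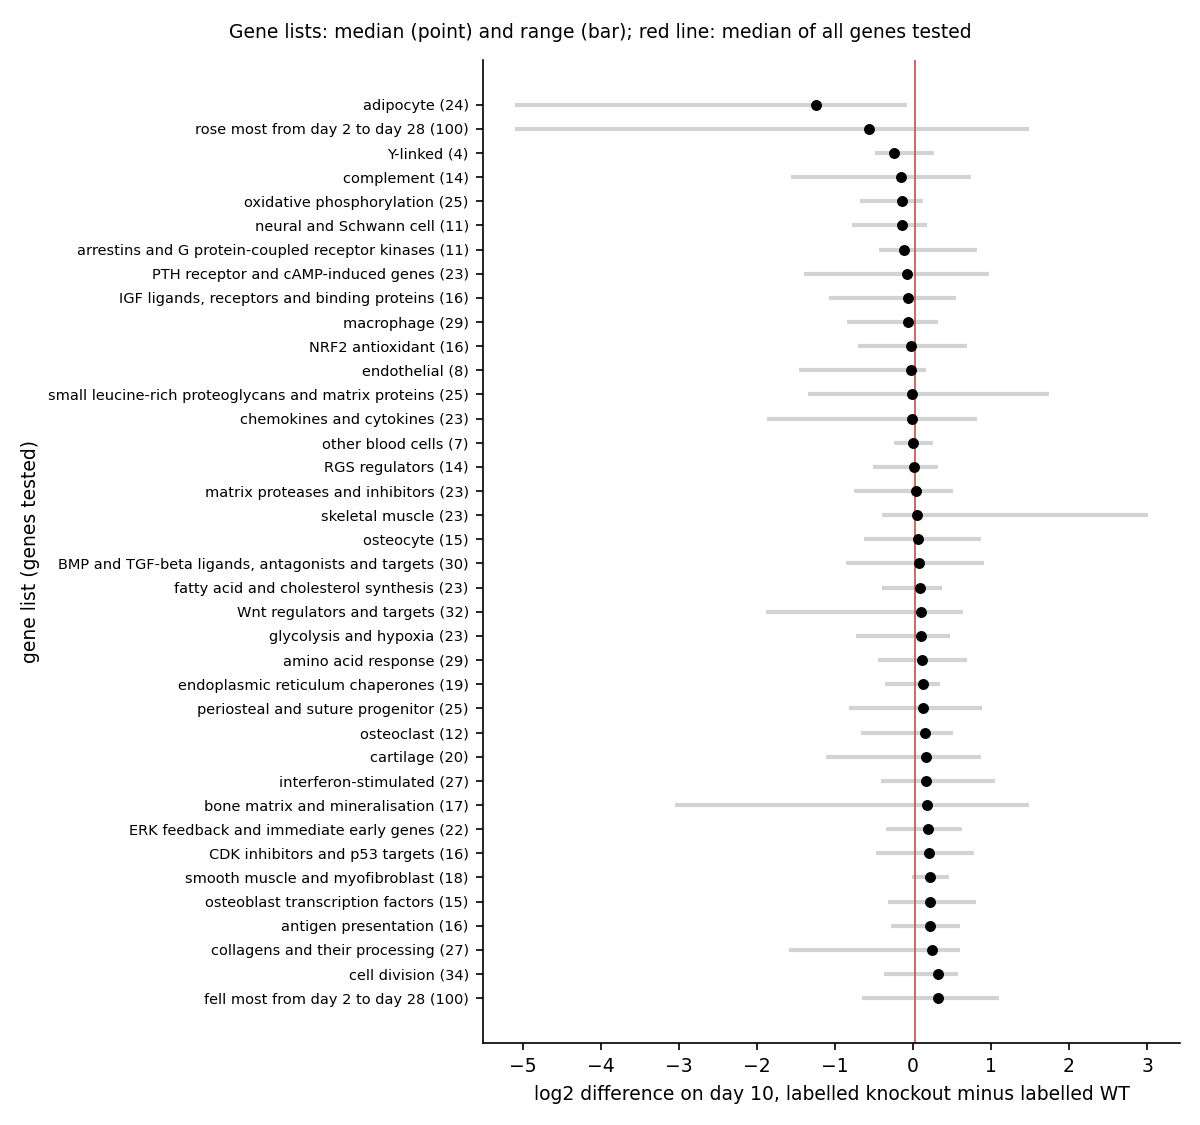
Median (point) and range (bar) of the log2 difference on day 10 over the tested members of each gene list, with the number of genes tested in brackets and the median of all genes tested as a red line. The adipocyte median is -1.25 and that of the genes that rose most with time is -0.56, while the medians of the other lists of more than 1 gene run from -0.24 to 0.33.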

How the data were processed

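The submitters' processing notes name RMA and Affymetrix Expression Console, whose versions the sources used here do not give. The authors deposited the resulting log2 expression values, 1 for each transcript cluster on each array, with no detection call. RMA equalises the distribution of probe signals across arrays, which removes any change shared by most genes. Values ranged from 0.31 to 14.08, and medians of the 6 day 10 arrays from 4.58 to 4.72. For arrays, their number limits the precision.

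The platform annotation named a gene for 25335 of 41345 clusters, with 1 symbol for 23521 and several for 1814. Symbols were updated through a RefSeq gene table (GRCm38.p6) for 23328. The cluster with the highest mean over 24 arrays stood for a gene (22180 genes), and the 14892 genes at or above their array's median on at least 3 arrays were tested. The functions lmFit and eBayes of limma 3.58.1 (R 4.3.3) fitted 8 group means to all 24 arrays, with 16 residual and 4 prior degrees of freedom. P-values were two-sided with Benjamini-Hochberg adjustment, and the code was tested on simulated data. Since pups and cultures behind the replicates are known only as independent preparations, the p-values measure the spread between these arrays. Within a genotype the replicate number seemed to mark the same preparation across days. Xist in labelled WT replicate 2 read 3.56, 4.09, 4.31 and 4.26 on days 2, 5, 10 and 28. The other labelled WT arrays read 7.90 to 9.74. The main fit took all 24 arrays as independent, in the tests between days as well. A random preparation block, with a correlation of 0.16, also gave 5 calls on day 10.

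Genes were named by rule: those called, the 12 largest differences each way at an unadjusted p under 0.01 without overlap, up to 4 members per list with the smallest p, the 8 of widest spread, the 4 with the smallest p in the test between days, and a fixed set of bone, sex-linked and marker genes. Genes outside the rule are marked, except Myh3, Epb41l4b and genes named only as untested. The comparison and the gene lists (805 genes, of which 59 had no single-symbol cluster and 51 lay below the filter) were chosen with earlier results of these data known. Replicate numbers recur in both genotypes, but the deviations of same-numbered day 10 arrays correlated at -0.01, 0.25 and 0.37, so they were not taken as pairs. Promoter sequences are RefSeq's.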

Additional observations from a re-analysis of the deposited data

Results flagged for a closer look

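The genotype difference of 3 named genes took opposite signs on day 10 and on another day, with no overlap between the genotypes on either day. Cd163, the gene of a macrophage scavenger receptor, differed by 0.31 on day 10 and by -0.16 on day 2 (limma adjusted p of the difference between the days 0.999). Tacr1, the gene of a substance P receptor, differed by -0.42 on day 10 and by 0.41 on day 2 (limma adjusted p = 0.316). Prodh, the gene of proline dehydrogenase, differed by 0.52 on day 10 and by -0.13 on day 5 (limma adjusted p = 1.00). None of these differences between days passed the test. On day 10 Cd163 lay below the medians of its arrays in both genotypes, Tacr1 in the labelled knockout and Prodh in the labelled WT.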

How the results depend on the processing

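The call count was 5 with no filter on low values, a stricter filter, every single-symbol row, a second quantile normalization, an intensity trend with a robust prior and a random preparation block, and 6 with arrays centred on their medians, which added Epb41l4b. The 6 day 10 arrays alone gave 1 call, 0 lower and 0 adipocyte members. Array weights gave 38 calls (3 higher, 35 lower, 7 adipocyte members). The replicate block with the number as a fixed term gave 31 (2 higher, 29 lower, 6 adipocyte members) and called Arrb2 (0.82, limma adjusted p = 0.0455). The macrophage mean as a term gave 34 (3 higher, 31 lower, 6 adipocyte members) and called Arrb2 (0.84). With no filter, 20303 genes had an interval within 1 log2 unit of 0 and 1389 were higher without overlap; the cause is the larger number of genes tested. Against day 28 alone the test between days called 1 gene.

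Leaving out 1 array at a time gave 0 to 55 calls, 0 to 2 higher, 0 to 54 lower and 0 to 14 adipocyte members called; 1345 to 1992 genes higher and 1349 to 1797 lower without overlap, since 5 arrays overlap less often; an Arrb2 difference of 0.68 to 0.94; and 0 to 20 calls between days. The adipocyte median stayed between -1.61 and -1.10. Among named genes the sign turned with the Y-linked and Xist terms for Uty (0.16), Arrb1 (0.0096) and Dmp1 (-0.064). It turned without some array for Ctss (-2.08 to 0.20), Hpgds (-1.74 to 0.64), Arrb1 (-0.18 to 0.11), Erg (-0.064 to 0.56), Pf4 (-0.30 to 0.64), Smpd3 (-0.089 to 1.45), Cd68 (-2.20 to 0.24), Kdm5d (-1.50 to 0.25), Eif2s3y (-2.03 to 0.34), Uty (-1.36 to 0.77), Ibsp (-0.51 to 2.60), Dmp1 (-0.40 to 0.43), Sost (-0.044 to 0.27), Cebpb (-0.12 to 0.016), Clcn7 (-0.020 to 0.29), Plvap (-0.24 to 0.024), Xist (-0.40 to 1.90), Tmem45b (-0.058 to 0.27) and Rgs11 (-0.025 to 0.37), none of them called in any of these fits. The cause was not tested for these changes. With 3 arrays per group and no detection calls, low signals and small differences stay undecided.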

Other observations

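Some gene groups that the comparison above leaves out held single genes with larger differences, none of them past the test. Among endothelial genes, 8 tested with a median difference of -0.02 (-0.07 to -0.03 when 1 array was left out), Tek, the angiopoietin receptor gene, read 5.30, 6.86 and 5.73 in the labelled knockout against 6.54, 8.31 and 7.40 in the labelled WT (difference -1.46). Labelled WT replicate 1 fell below the highest labelled knockout array. Among insulin-like growth factor genes, 16 tested with a median of -0.07 (-0.28 to 0.06 when 1 array was left out), Irs2, an insulin receptor substrate gene, read 5.77, 5.87 and 5.92 against 6.17, 6.75 and 6.33 with no overlap (difference -0.56). Among glycolysis and hypoxia genes, 23 tested with a median of 0.11 (0.0061 to 0.14 when 1 array was left out), Pkm, the pyruvate kinase gene, read 11.32, 11.23 and 11.19 against 10.55, 10.76 and 10.99 with no overlap (difference 0.48), while Vegfa, the vascular growth factor gene, differed by -0.73.

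Genes of smooth muscle and myofibroblasts were positive in 16 of 18, with a median of 0.21 (0.15 to 0.27 when 1 array was left out). In this list 3 were higher without overlap (16.7%, against 6.02% of all genes tested), with 0 called by limma and 2 at an unadjusted p under 0.05. Labelled knockout replicate 1 was the highest of the 6 arrays for 10 of the 18 (21.2% of all genes tested). Labelled WT replicates 1 and 2 were the lowest for 8 and 9 (32.8% and 11.8% of all genes tested). Acta2, the gene of smooth muscle actin, read 13.28, 13.17 and 13.06 against 12.89, 12.72 and 13.01. In the interferon-stimulated list, 27 were tested with a median of 0.17. Labelled knockout replicate 2 was the highest array for 25 of them and labelled knockout replicate 3 the lowest for 22. The median was -0.38 without labelled knockout replicate 2, 0.70 without labelled knockout replicate 3, 0.47 without labelled WT replicate 2 and -0.05 without labelled WT replicate 3. Within this list Xaf1 differed by 1.05 with overlapping arrays (7.86 to 9.82 against 7.17 to 8.27). Fatty acid and cholesterol synthesis genes, 23 tested with a median of 0.09 (0.02 to 0.36 when 1 array was left out, the highest without labelled knockout replicate 3), held 0 genes called by limma and 0 at an unadjusted p under 0.05.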
